A study of Rattus norvegicus with 8 samples.

Results

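The Toll-like receptor genes Tlr1 to Tlr9 and the related gene Cd180 were followed in whole blood of rats with experimental hypertension, before and after 4 weeks of Chios mastic gum (CMG), the resin of Pistacia lentiscus. The genes were chosen by name, and 10 of the 17446 genes in the count table belonged to the set. Male wild type Wistar rats, 12 to 14 weeks old at the start, received angiotensin II (AngII) from an osmotic minipump at 0.4 mg/kg/day, or deoxycorticosterone acetate at 100 mg/kg weekly with 0.9% NaCl and 1% KCl in the drinking water (DOCA–HS). Blood was taken before CMG, at week 1 of AngII and week 3 of DOCA–HS, and after CMG at 220 mg/kg daily, at week 5 of AngII and week 7 of DOCA–HS, by heart puncture into heparin per the labels. Each of the 4 groups held 2 libraries, 8 in all. Nothing in the labels ties a library to a given rat, so the p-values measure the spread between these libraries. No library of rats kept on AngII or DOCA–HS without CMG was analysed here, so CMG and 4 more weeks of the model cannot be told apart.

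Toll-like receptors are membrane receptors of leukocytes that bind microbial molecules and signal through adaptors such as Myd88 to the transcription factors NF-kB and IRF. Tlr2 pairs with Tlr1 or Tlr6 at the cell surface and binds bacterial lipoproteins, Tlr4 responds to lipopolysaccharide with the help of Cd14 and Ly96, and Tlr5 binds flagellin. Tlr3, Tlr7, Tlr8 and Tlr9 sense nucleic acids inside endosomes, to which the chaperone Unc93b1 carries them. Cd180 resembles Tlr4 outside the cell but lacks the signalling domain, pairs with Ly86, and is known from B cells and myeloid cells. Monocytes, neutrophils and B cells are the blood cells best known for these receptors. In whole blood, fewer cells of a type and less RNA per cell cannot be told apart.

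The libraries held between 4149104 and 13205565 counts, of which 61.9% to 84.3% belonged to the hemoglobin genes Hbb and LOC100134871. DOCA–HS after CMG library 2 stood apart, with 84.3% hemoglobin counts and 2686 genes at 10 or more counts, against 6097 to 8280 genes elsewhere. It held 22 counts of the 10 receptor genes and none for 6 of them. AngII before CMG library 2 was the next lowest, with 55 receptor counts, whereas the other 6 libraries held 198 to 631. In library 2 of the DOCA–HS after CMG group, the limit that a count of 0 allows, taken as 3 counts, stood at 2.11 CPM, a count scaled to library size with the TMM factor. For the receptors, values without these libraries are given for some of the results that moved. Pathway and marker genes were not examined without them.

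The receptors differed widely in how many reads supported them, which sets the precision of each value below. Transcript lengths were not used here, so levels are compared between libraries of a gene and not between genes. Tlr2, Tlr8 and Cd180 had up to 126, 146 and 163 counts in a library, and Tlr7 up to 87. Tlr4, Tlr5 and Tlr9 did not exceed 17, 22 and 15 counts. Tlr3 had 2 and 4 counts in the AngII libraries after CMG, 2 and 1 in the DOCA–HS libraries before CMG, and 0 in the other 4, so that its level was not measurable at this depth. Other family genes listed in the table were near 0, with 7 counts of Tlr10, 1 of Tlr11 and 2 of Tlr12 summed over all libraries.

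**Figure D1:**
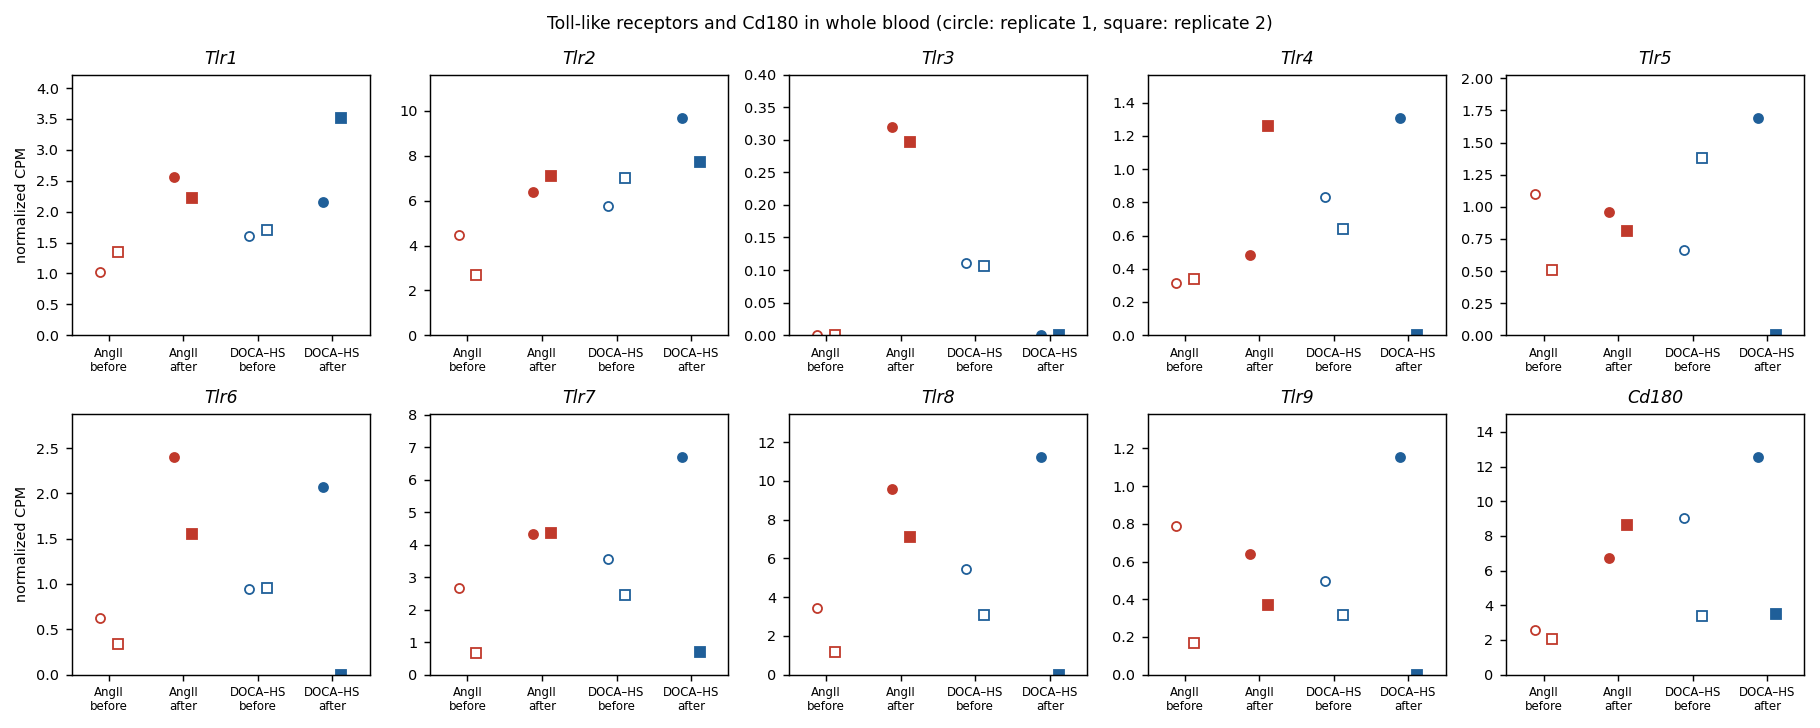
Level of each of the 10 genes in every library, in normalized CPM on the vertical axis, with groups on the horizontal axis; each panel has its own scale, open symbols are before CMG, filled symbols after CMG, circles library 1 and squares library 2. In the AngII model (red) both filled points lie above both open points for Tlr1, Tlr2, Tlr3, Tlr4, Tlr6, Tlr7, Tlr8 and Cd180, while in the DOCA–HS model (blue) the filled square is at 0 for Tlr3, Tlr4, Tlr5, Tlr6, Tlr8 and Tlr9.

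In the AngII model, Cd180, Tlr8 and Tlr6 rose after CMG by the criterion of the study, with more than 1.5 on the log2 scale and p at most 0.05 before adjustment. The rise was about as large in all 3 genes, 1.73, 1.74 and 1.87 on the log2 scale. The criterion was met by 1.24% of the 7201 genes tested, 0.903% in the upward direction. No gene of this comparison passed an adjustment over all genes (edgeR quasi-likelihood test, Benjamini-Hochberg, lowest adjusted p = 0.474), and 479 genes had an unadjusted p of at most 0.05. Tlr3, Tlr4, Tlr5 and Tlr9 had too few counts for the filter and were not tested, and a gene at low counts passes that filter more easily where one of its groups is high.

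Cd180 had 2.59 and 2.03 CPM before CMG and 6.72 and 8.65 CPM after it. Both libraries after CMG were thus well above both before, and the group means were 2.31 ± 0.401 and 7.69 ± 1.37 CPM (SD, n = 2). Its log2 fold change was 1.73 with a standard error of 0.33 (edgeR, unadjusted p = 0.000745, adjusted p = 0.590). Cd180 met the criterion under all 13 other settings with a value, 4 of them leaving out a library, with log2 fold changes between 1.52 and 2.15 and adjusted p-values between 0.000134 and 0.999.

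Tlr8, a receptor for single-stranded RNA, had 3.46 and 1.18 CPM before CMG and 9.60 and 7.10 CPM after it. The groups did not overlap, at means of 2.32 ± 1.61 and 8.35 ± 1.77 CPM (SD, n = 2). Its log2 fold change of 1.74 (SE 0.46, edgeR, unadjusted p = 0.00545, adjusted p = 0.628) fell below 1.5 without AngII before CMG library 2, at 1.23, and without AngII after CMG library 1, at 1.45, and was 2.81 without AngII before CMG library 1. Tlr8 met the criterion under 10 of its 12 other settings, with adjusted p-values between 1.29e-05 and 0.9996.

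Tlr7, which senses the same kind of ligand and lies beside Tlr8 on the X chromosome, had 2.67 and 0.676 CPM before and 4.32 and 4.36 CPM after CMG. The libraries after CMG were nearly equal, whereas the libraries before CMG stood far apart, at 34 and 4 counts. The log2 fold change was 1.24 (SE 0.52, edgeR, unadjusted p = 0.0450, adjusted p = 0.740), short of the criterion. It was 2.67 without AngII before CMG library 1 and 0.67 without library 2 of that group, so the size of the difference depended on which of these libraries was kept.

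Tlr6, a partner of Tlr2, had 0.629 and 0.338 CPM before and 2.40 and 1.55 CPM after CMG, from 8, 2, 15 and 21 counts. Both libraries after CMG were above both before, with a log2 fold change of 1.87 (SE 0.62, edgeR, unadjusted p = 0.0168, adjusted p = 0.628). It missed the p threshold without AngII before CMG library 2 (log2 fold change 1.56, edgeR unadjusted p = 0.0570) and without AngII after CMG library 1 (1.51, edgeR unadjusted p = 0.0729). Tlr1, the other partner of Tlr2, is a close paralogue of Tlr6, and how reads matching both genes were counted is not given in the sources used here, so their separate values are uncertain.

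Tlr1 had 1.02 and 1.35 CPM before and 2.56 and 2.22 CPM after CMG. Tlr2 had 4.48 and 2.70 CPM before and 6.40 and 7.10 CPM after CMG. In both genes the groups did not overlap and the difference was smaller than the fold the criterion asks for. The log2 fold changes were 1.05 for Tlr1 (SE 0.45, edgeR, unadjusted p = 0.0493, adjusted p = 0.747) and 0.88 for Tlr2 (SE 0.34, edgeR, unadjusted p = 0.0319, adjusted p = 0.701). Tlr1 had an unadjusted p above 0.05 on leaving out any of the 4 libraries, up to 0.232 (edgeR). Tlr2 had 0.56 without AngII before CMG library 2 (edgeR, unadjusted p = 0.192), 1.33 without library 1 of that group and an unadjusted p of 0.0948 without AngII after CMG library 2 (edgeR).

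The remaining receptors were too low for a test in the AngII model. Tlr4, the lipopolysaccharide receptor, had 0.314 and 0.338 CPM before and 0.480 and 1.26 CPM after CMG, from 4, 2, 3 and 17 counts. Tlr5 had 1.10 and 0.507 CPM before and 0.960 and 0.814 CPM after CMG. Tlr9, which senses DNA with unmethylated CpG, had 0.786 and 0.169 CPM before and 0.640 and 0.370 CPM after CMG. The groups of Tlr5 and Tlr9 overlapped, whereas those of Tlr4 did not, although 1 of its libraries after CMG held no more counts than the limit for a count of 0.

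All 6 receptors tested in the AngII model had a log2 fold change above 0, with a median of 1.48, where 49% of all genes tested were above 0 and their median was -0.01. All 6 also had an unadjusted p of at most 0.05, against 6.65% of all genes in either direction and 5.04% in the upward one, and groups that did not overlap with the higher values after CMG, against 21.3%. Without AngII before CMG library 2, 2 of these 6, Tlr8 and Cd180, kept an unadjusted p of at most 0.05, and 3 to 5 did on leaving out another library. With DESeq2 in place of edgeR it was 3 of 6, Tlr6, Tlr8 and Cd180. These counts describe the genes that passed the filter and not all 10. Tlr1, Tlr6, Tlr7 and Tlr8 had 8, 2, 4 and 7 counts in AngII before CMG library 2. They passed the filter with the help of their higher counts after CMG, so that 6 of 6 is no support for a rise of the set. With at least 10 counts asked for in every library, Tlr2 and Cd180 remained. Over all 10 genes the summed level was 17.1 and 9.29 CPM before and 34.4 and 33.7 CPM after CMG. Under scaling to total counts the median of all genes moved to 0.36, the receptors' median was 1.83, and Tlr7 also met the criterion at a log2 fold change of 1.60 (edgeR, unadjusted p = 0.0144, adjusted p = 0.522). Over all genes, that scaling turned 65 higher and 24 lower genes into 210 and 12.

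In the DOCA–HS model no receptor met the criterion after CMG, which 2.05% of the 7720 genes tested did, 1.79% in the upward and 0.259% in the downward direction. The edgeR test gave no adjusted p under 0.05 for any gene (lowest 0.997), and none of the 8 receptors tested had an unadjusted p of at most 0.05, which 3.17% of all genes had and 2.73% had with a higher value. All 8 fitted log2 fold changes were above 0, from 0.49 to 0.78 with a median of 0.55, where 47.5% of all genes were above 0. The group means of CPM did not all go the same way, since those of Tlr4 (0.734 before, 0.653 after) and Tlr5 (1.02 before, 0.846 after) were lower after CMG. The standard errors of the fitted values ran from 0.44 to 0.85, so that each difference was smaller than or close to its error. The 2 libraries after CMG stood far apart for most receptors, which the plot of levels by library shows.

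Cd180 had 9.03 and 3.40 CPM before and 12.5 and 3.52 CPM after CMG in this model. Tlr8 had 5.43 and 3.08 CPM before, 11.2 CPM in library 1 after CMG and 0 of 4149104 counts in library 2. In Tlr8 the first of these libraries was above both values before CMG, and the other was below both even at the 2.11 CPM that its count of 0 allows. Tlr7 showed the same spread, with 3.55 and 2.44 CPM before and 6.69 and 0.703 CPM after CMG.

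Tlr1 and Tlr2 were the receptors whose DOCA–HS groups did not overlap with the higher values after CMG, which held for 14.7% of all genes tested. Tlr1 had 1.61 and 1.70 CPM before and 2.15 and 3.52 CPM after CMG. Tlr2 had 5.76 and 7.01 CPM before and 9.69 and 7.73 CPM after CMG. Their log2 fold changes of 0.59 (SE 0.55) and 0.49 (SE 0.44) were close to their standard errors (edgeR, unadjusted p = 0.311 and 0.298, adjusted p = 0.997 for both). The Tlr1 value of library 2 after CMG came from 5 counts.

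The other surface receptors, together with Tlr9, each had 0 counts in library 2 after CMG. Tlr4 had 0.831 and 0.637 CPM before and 1.31 CPM in library 1 after CMG. Tlr5 had 0.665 and 1.38 CPM before and 1.69 CPM in that library. Tlr6 had 0.942 and 0.956 CPM before and 2.08 CPM there, and Tlr9 0.499 and 0.319 CPM before and 1.15 CPM. In all 4 genes the remaining library was above both values before CMG, and the limit of 2.11 CPM in library 2 was higher than every value before CMG, so that no difference was detectable in that library at its depth.

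Leaving out DOCA–HS after CMG library 2 raised the receptors' median log2 fold change to 0.97, with all 9 tested above 0, and the lone library was then assumed to vary like the other groups. Tlr8 had a log2 fold change of 1.37 in that fit (edgeR, unadjusted p = 3.11e-05, adjusted p = 0.00620), and 119 genes in all passed the adjustment. Tlr7 had 1.14 (edgeR, adjusted p = 0.0735) and Cd180 0.97 (edgeR, adjusted p = 0.109), and no receptor met the criterion. Leaving out library 1 instead left the library in which most receptors had 0 counts, so that no size can be read from that fit. Tlr8, whose values before CMG exceeded the limit of that library, was then called lower. Calls over all genes were also far more frequent in that fit, and the median of all genes was -0.37. The direction for Tlr8 therefore depended on which library after CMG was kept. Under scaling to total counts 3 of 8 receptors were above 0, at a median of -0.12 against -0.76 for all genes. That scaling turned 138 higher and 20 lower genes over the whole table into 0 and 9.

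**Figure D2:**
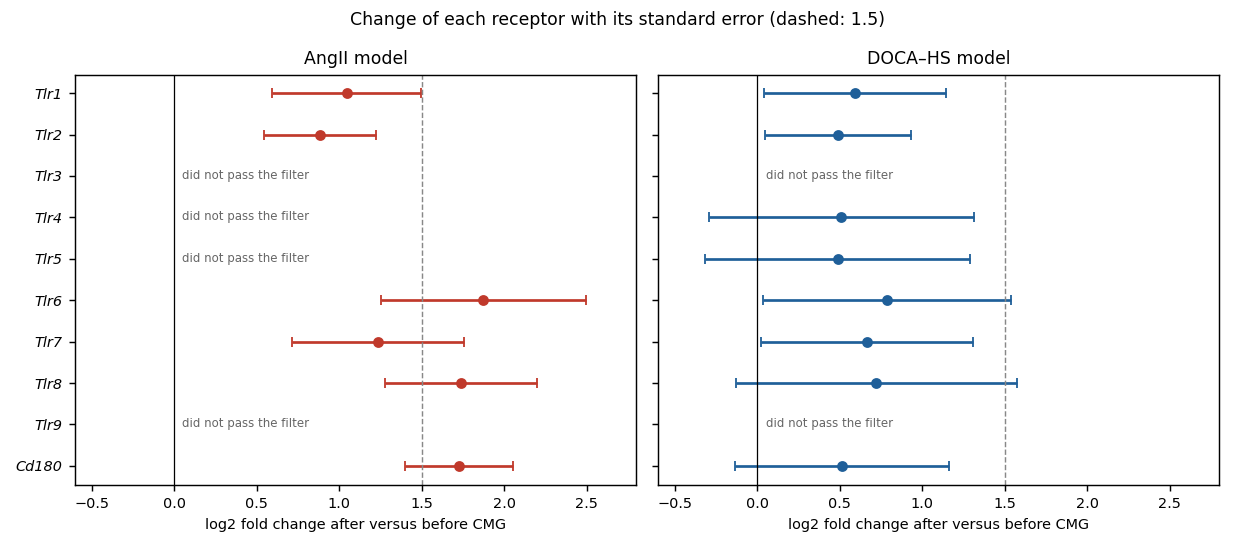
Log2 fold change after versus before CMG on the horizontal axis for each gene on the vertical axis, AngII model on the left and DOCA–HS model on the right; points are edgeR estimates from the libraries of that model, bars are 1 standard error, and the dashed line marks 1.5. Cd180, Tlr8 and Tlr6 lie beyond the line in the AngII model and no gene does in the DOCA–HS model, where every estimate lies between 0.49 and 0.78.

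Whether the change differed between the models was tested directly, as the DOCA–HS change minus the AngII change in a fit of all 8 libraries. None of the 8 receptors tested differed, by the criterion or by an unadjusted p of at most 0.05, while 3.16% of the 7994 genes tested met the criterion, 2.25% above and 0.913% below 0, and 3.74% had such a p, 2.53% above 0. No gene had an adjusted p under 0.05 (edgeR, lowest 0.881). The differences were below 0 in all but 1 of the 8, with a median of -0.76 against -0.12 for all genes, of which 44.5% were above 0. Cd180 had the lowest, at -1.17 (SE 0.80, edgeR, unadjusted p = 0.170), followed by Tlr6 at -1.09 (SE 1.01) and Tlr4 at -1.02 (SE 1.15). Tlr8 had -0.97 (SE 1.08), and Tlr5 had a fitted difference of 0.44 (SE 1.07), although its group means were lower after CMG in DOCA–HS (1.02 and 0.846 CPM) and higher in AngII blood (0.804 and 0.887 CPM). Without DOCA–HS after CMG library 2 the median was -0.34. Without library 1 of that group, Tlr6, Tlr7, Tlr8 and Cd180 met the criterion. The remaining library held 0, 1, 0 and 5 counts of these genes. Calls over all genes were also far more frequent in that fit, and the median of all genes was -0.50.

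Before CMG, all 8 receptors tested were higher in DOCA–HS than in AngII blood by their fitted value, with log2 fold changes from 0.17 to 1.42 and a median of 0.79, where 55.2% of all genes were above 0. None met the criterion, as 0.838% of genes did. Cd180 had the largest difference, with 2.59 and 2.03 CPM in AngII and 9.03 and 3.40 CPM in DOCA–HS blood. Its log2 fold change was 1.42 (SE 0.58, edgeR, unadjusted p = 0.0321, adjusted p = 0.992). No other receptor had an unadjusted p of at most 0.05, against 3.38% of all genes. With limma-voom the unadjusted p of Cd180 was 0.0640. Its log2 fold change missed the p threshold without DOCA–HS before CMG library 1, at 0.55. It also missed it without AngII before CMG library 1, at 1.63, and without library 2 of that group, at 1.27. Without DOCA–HS before CMG library 2 it reached the criterion at 1.88. Tlr4 had 1.18 (SE 0.86), Tlr6 0.85 (SE 0.76) and Tlr8 0.80 (SE 0.78). Tlr2 had 0.79 (SE 0.37, edgeR, unadjusted p = 0.0585) and from 0.50 to 1.23 on leaving out a library, its DOCA–HS values of 5.76 and 7.01 CPM lying above the AngII values of 4.48 and 2.70 CPM. Tlr1, Tlr2, Tlr4, Tlr6 and Cd180, 5 of the 8, did not overlap between the models, which held for 24.3% of all genes in that direction. Without AngII before CMG library 2 the receptors' median was 0.50, with 7 of 9 above 0. Tlr8 then had 0.31, Tlr7 0.18 and Tlr5 -0.18. Without library 1 of that group the median was 1.26, with all 9 above 0. The receptors came from the same libraries, so that all 8 above 0 is no support for a difference of the set. The models differ in agent and in week of sampling, which cannot be told apart here.

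After CMG the median log2 fold change of DOCA–HS against AngII was 0.16, with 6 of 8 receptors above 0 where 46.5% of all genes were, and none met the criterion (1.4% of all genes did, 1.09% higher in DOCA–HS) or had an unadjusted p of at most 0.05 (2.79% did). By the group means of CPM 3 of the 8, Tlr1, Tlr2 and Cd180, were higher in DOCA–HS blood, so that the fitted sign of Tlr4, Tlr5 and Tlr7 went against their means. Without DOCA–HS after CMG library 1, Tlr6 and Tlr8 met the criterion from a library with 0 counts of either. Calls over all genes were also far more frequent in that fit, and the median of all genes was -0.38. Tlr2 was the single receptor without overlap, at 9.69 and 7.73 CPM against 6.40 and 7.10 CPM in AngII blood, with a log2 fold change of 0.41 (SE 0.38). Without overlap in that direction were 10.8% of all genes. Cd180 was at 8.02 ± 6.38 CPM in DOCA–HS and 7.69 ± 1.37 CPM in AngII blood (SD, n = 2), where the AngII values lay between those of the DOCA–HS libraries. This comparison and the preceding one share libraries with the changes within each model and are no independent evidence on them.

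The make-up of the receptor counts within a library does not depend on the scaling, and was examined after the levels were seen. The endosomal receptors Tlr3, Tlr7, Tlr8 and Tlr9 took 47.8% (95% exact Clopper-Pearson interval 40.4 to 55.3) and 27.9% (15.3 to 43.7) of the Tlr1 to Tlr9 counts in AngII blood before CMG, and 53.8% (46.0 to 61.4) and 48.4% (42.9 to 53.8) after it. In DOCA–HS blood they took 49.4% (44.1 to 54.8) and 33.7% (26.6 to 41.5) before CMG, and 53.0% (48.4 to 57.6) and 5.88% (0.149 to 28.7) after it. Library 2 had the lower share in all 4 groups, and in both DOCA–HS groups its interval did not meet that of library 1. In DOCA–HS after CMG library 2 that share rested on 1 of 17 counts. These intervals cover counting error only.

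Cd180 took 15.2% (95% exact interval 10.7 to 20.7) and 21.8% (11.8 to 35.0) of the counts of the 10 genes in AngII blood before CMG, and 19.5% (14.5 to 25.5) and 25.7% (21.7 to 29.9) after it. In DOCA–HS blood it took 31.8% (27.8 to 36.0) and 16.2% (11.3 to 22.0) before CMG, and 25.8% (22.5 to 29.4) and 22.7% (7.82 to 45.4) after it. The values before and after CMG overlapped in both models. Of the counts of the neighbouring genes Tlr7 and Tlr8, Tlr8 took 55.8% to 69.0% in the 7 libraries with more than 1 count of the pair. The exact 95% intervals of these libraries overlapped. They were wide at low counts, from 30.8 to 89.1 in AngII before CMG library 2 and from 41.3 to 69.5 in DOCA–HS before CMG library 2.

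**Figure D3:**
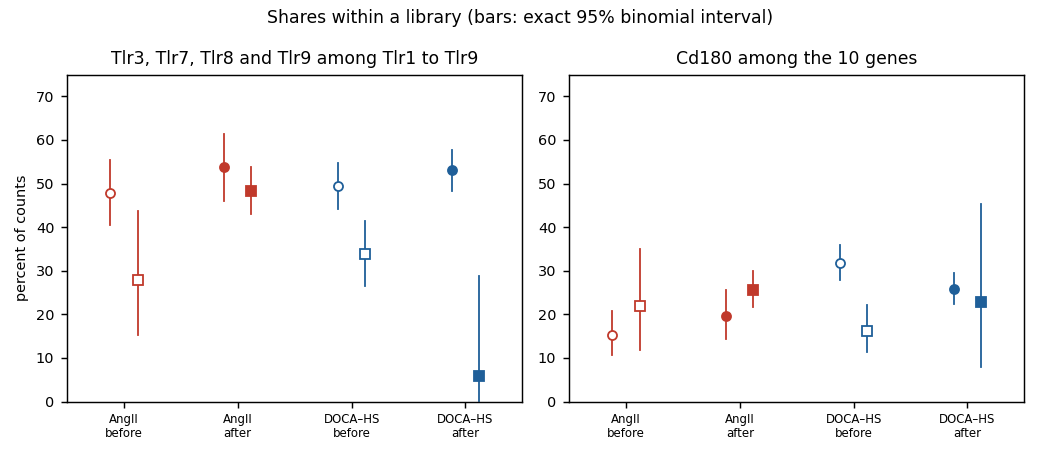
Percent of counts on the vertical axis for each library by group, with exact 95% binomial intervals as bars: on the left the endosomal receptors among Tlr1 to Tlr9, on the right Cd180 among the 10 genes; open symbols are before CMG, filled after, circles library 1 and squares library 2. The endosomal share runs from 27.9% to 53.8% in 7 libraries and is 5.88% in DOCA–HS after CMG library 2, where it rests on 17 counts.

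None of the accessory genes, adaptors and kinases of the pathway met the criterion in the AngII model. Of 15 accessory and trafficking genes 13 were tested, with a median log2 fold change of 0.39, and 3 had an unadjusted p of at most 0.05, all with higher values, against 5.04% of all genes. The lysosomal transporter Slc15a4, needed for endosomal receptor signalling, had 2.12 and 2.70 CPM before and 5.28 and 6.21 CPM after CMG. Its log2 fold change was 1.30 (SE 0.33, edgeR, unadjusted p = 0.00392, adjusted p = 0.628), and that of Itgam, the integrin chain CD11b of myeloid cells, was 1.19 (SE 0.33, edgeR, unadjusted p = 0.00693, adjusted p = 0.628). Slc15a4 had 3.10 and 3.82 CPM before and 6.69 and 6.33 CPM after CMG in the DOCA–HS model, without overlap, with a log2 fold change of 0.93 (SE 0.45, edgeR, unadjusted p = 0.0706, adjusted p = 0.997). No accessory gene of 14 tested had an unadjusted p of at most 0.05 in that model, and their median was 0.31.

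Genes of proteins that bind to these receptors directly were picked out after their RNA values were seen. Ly86, the partner of Cd180, had 1.73 and 5.41 CPM before and 2.88 and 5.62 CPM after CMG in the AngII model, where the groups overlapped and the log2 fold change was 0.42 (SE 0.54, edgeR, unadjusted p = 0.464, adjusted p = 0.866). Unc93b1, the chaperone of the endosomal receptors, had 12.1 and 19.4 CPM before and 18.2 and 22.9 CPM after CMG, which also overlapped. Cd14, the co-receptor of Tlr4, had 3.14 and 1.86 CPM before and 0.480 and 2.00 CPM after CMG, with a log2 fold change of -0.89 (SE 0.60, edgeR, unadjusted p = 0.173, adjusted p = 0.798). Ly96, the other helper of Tlr4, had 0.786 and 0.676 CPM before and 0.480 and 0.592 CPM after CMG. Its groups did not overlap, with the lower values after CMG, but rested on 10, 4, 3 and 8 counts. None of these partners met the criterion that Cd180, Tlr8 and Tlr6 met.

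Among the 24 adaptors and kinases, 18 were tested in the AngII model and none met the criterion, with a median of 0.14. The kinases Tbk1, which activates Irf3, and Irak4, which Myd88 recruits, had log2 fold changes of 0.87 (SE 0.34, edgeR, unadjusted p = 0.0317, adjusted p = 0.701) and 0.92 (SE 0.38, edgeR, unadjusted p = 0.0424, adjusted p = 0.733). In the DOCA–HS model 19 were tested, none met the criterion or had an unadjusted p of at most 0.05, and the median was -0.34. The lowest p was that of Tab1, a partner of the kinase Map3k7, at a log2 fold change of 1.29 (SE 0.57, edgeR, unadjusted p = 0.0526, adjusted p = 0.997).

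Of the 16 transcription factors and target genes, 11 were tested in the AngII model, and 8 of these had a log2 fold change above 0. By the criterion 2 were lower and none higher after CMG, where 0.333% of all genes tested were lower and 0.903% higher. Nfkbia, the NF-kB inhibitor that NF-kB itself induces, had 63.7 and 61.3 CPM before and 19.5 and 22.3 CPM after CMG, a log2 fold change of -1.56 (SE 0.31, edgeR, unadjusted p = 0.000987, adjusted p = 0.590). Cxcl2, a neutrophil chemokine and classic target of these receptors, had 9.35 and 12.2 CPM before and 4.32 and 1.26 CPM after CMG, a log2 fold change of -2.02 (SE 0.52, edgeR, unadjusted p = 0.00458, adjusted p = 0.628). Both were thus lower after CMG in the libraries in which Cd180, Tlr8 and Tlr6 were higher, and the list's median was 0.19. In the DOCA–HS model 10 were tested and none met the criterion, with a median of -0.33. The chemokine Ccl5 had the lowest p there, at a log2 fold change of 1.15 (SE 0.45, edgeR, unadjusted p = 0.0332, adjusted p = 0.997).

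Cxcl2 was also lower in DOCA–HS than in AngII blood before CMG. It was at 1.33 and 0.425 CPM in DOCA–HS blood before CMG, a log2 fold change against AngII of -3.48 (SE 0.61, edgeR, unadjusted p = 0.000146, adjusted p = 0.992). Nfkbia was at 23.7 and 22.8 CPM there, with -1.43 (SE 0.37, edgeR, unadjusted p = 0.00302, adjusted p = 0.992), short of the criterion. After CMG Cxcl2, at 8 and 1 counts in DOCA–HS blood, was lower there (log2 fold change -2.02, SE 0.80, edgeR, unadjusted p = 0.0289, adjusted p = 0.99998). The chemokine Ccl4 also met the criterion (log2 fold change -2.16, SE 0.84, edgeR, unadjusted p = 0.0261, adjusted p = 0.99998). Ccl4 had 6.08 and 1.41 CPM in AngII blood, and 0.923 and 0 CPM in DOCA–HS blood. The limit of 2.11 CPM in DOCA–HS after CMG library 2 lay above the lower of the AngII values. The difference of the Nfkbia change between the models was 1.42, short of the criterion (SE 0.53, edgeR, unadjusted p = 0.0218, adjusted p = 0.881).

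Monocyte markers were also higher after CMG in the AngII model by most fitted values. Of 10 monocyte markers 8 were tested, 7 were above 0 with a median of 0.96, where 49% of all genes were above 0, and 6 had groups that did not overlap, where 21.3% of all genes did not. Of these markers Clec4a3, a lectin receptor of myeloid cells, met the criterion at 1.65 (SE 0.51, edgeR, unadjusted p = 0.0116, adjusted p = 0.628). Csf1r, the receptor for the growth factor of monocytes, had 41.4 and 18.1 CPM before and 82.5 and 53.8 CPM after CMG, whereas Cd163 had 0 counts in all 8 libraries. The summed level of the monocyte list was 425 and 404 CPM before and 534 and 524 CPM after CMG, and the receptors' sum made 4.02% and 2.30% of it before and 6.44% in both libraries after. Most of that sum was Lyz2, the lysozyme gene, with 355 and 373 CPM before and 404 and 434 CPM after CMG. Over the other markers, a sum chosen after seeing the data, the level was 70.0 and 30.7 CPM before and 130 and 89.9 CPM after CMG, and the receptors' sum made 24.4% and 30.2% of it before and 26.4% and 37.5% after. The receptors' share was thus higher after CMG against the whole list and overlapped without Lyz2, and the part of the monocyte markers in the change was not tested.

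The 9 B cell markers tested had a median of 0.35 in the AngII model with sums of 67.4 and 90.5 CPM before and 69.3 and 122 CPM after CMG, which overlapped. The 5 cytotoxic lymphocyte markers tested had a median of 1.17 and sums of 30.8 and 33.3 CPM before and 67.0 and 58.4 CPM after CMG, and Gzma met the criterion at 1.59 (SE 0.30, edgeR, unadjusted p = 0.000649, adjusted p = 0.590). Neutrophil markers had a median of -0.19, plasmacytoid dendritic cell markers 0.21, T cell markers -0.44, erythroid markers -0.41 and platelet markers -0.35. Their part in the receptor values was not tested.

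In the DOCA–HS model all 9 B cell markers tested had log2 fold changes below 0, none of them past the criterion, at a median of -0.89 and sums of 144 and 105 CPM before and 88.7 and 42.9 CPM after CMG. Cd180, which B cells carry, had group means of 6.21 ± 3.98 and 8.02 ± 6.38 CPM (SD, n = 2). The monocyte markers had a median of 0.61, and their sums of 451 and 686 CPM before and 659 and 401 CPM after CMG overlapped. The receptors' sum made 6.31% and 3.06% of the monocyte sum before CMG and 7.36% and 3.85% after it. Without Lyz2 it made 31.1% and 36.3% before and 30.0% and 27.5% after CMG. Platelet markers had a median of 1.26, cytotoxic 0.81, erythroid 0.78, plasmacytoid dendritic cell 0.08, neutrophil -0.30 and T cell markers -0.38. Gzma met the criterion in this model too, at 1.89 (edgeR, unadjusted p = 0.0119), as did the platelet marker Pf4 at 1.72 (edgeR, unadjusted p = 0.0238). The neutrophil marker Ngp at -3.27 and the dendritic cell marker Spib at -1.52 met it with lower values (edgeR, unadjusted p = 0.0137 and 0.0453). The adjusted p was 0.997 for each. Over all genes 1.79% were called higher and 0.259% lower. After CMG Ngp had 6 and 5 counts and Spib 117 and 2, the latter of each in the outlying library 2.

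**Figure D4:**
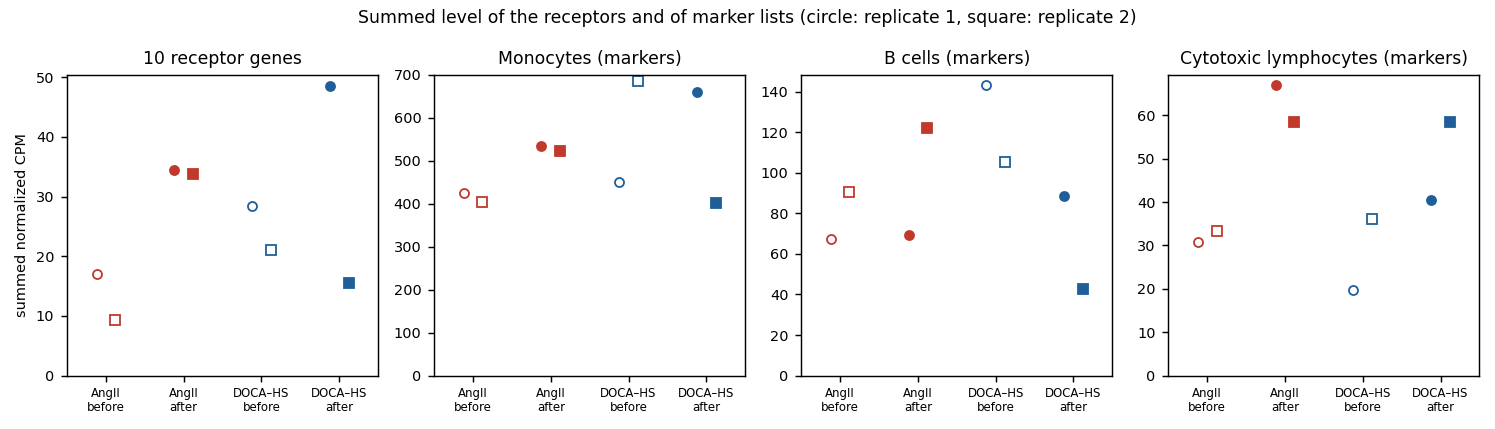
Summed normalized CPM on the vertical axis of the 10 receptor genes and of the monocyte, B cell and cytotoxic lymphocyte marker lists in each library, by group; open symbols are before CMG, filled after, circles library 1 and squares library 2, and each panel has its own scale from 0. In the AngII model (red) the receptor sum, the monocyte sum and the cytotoxic sum are higher in both libraries after CMG, and the B cell sum overlaps; most of the monocyte sum is Lyz2.

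The receptors were then compared with each other over the 8 libraries, as a description that shares library depth and composition. Among 7 receptors with a mean of 10 or more counts, the 21 pairwise correlations of log2 CPM had a median r of 0.64 and ran from -0.51 to 0.98. Without DOCA–HS after CMG library 2 the median was 0.81 and the range 0.24 to 0.97. Tlr8 followed Tlr6 (r = 0.98) and Tlr7 (r = 0.91) most closely, and Cd180 followed Tlr7 (r = 0.81). Tlr1 and Tlr5 differed most in their pattern (r = -0.51), and without the outlying library that pair had r = 0.24.

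Among 7402 other genes searched with the same measure, the genes most like Tlr8 over the 8 libraries were Itgal (r = 0.99), Elf4 (r = 0.99) and Pik3cb (r = 0.99). Those most like Tlr7 were Ccnt2, Cyfip1 and Otud4 (each r = 0.99), and those most like Tlr6 were Colgalt1, Tnfsf13 and Pld4 (each r = 0.99). For Cd180 they were Hsd11b1, Tmem168 and Plxnb2, with r from 0.96 to 0.97. For Tlr1 they were Tnpo3, Spi1 and Pla2g15 (r from 0.97 to 0.98), for Tlr2 Abhd16a, Lactb and Mboat1 (r from 0.95 to 0.96), and for Tlr5 Nfya, Zdhhc7 and Rap1b (r from 0.97 to 0.98). The highest of many correlations over 8 libraries are high by selection, and no test was made of them.

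The sequence just before the start of each gene was read from the RefSeq promoter table of the GRCr8 build, which listed all 10 genes. The counts were made on rn6, so these positions are not those of the count table. The windows of the receptors called in the AngII model are printed first, 250 bases upstream of the start in the direction of the gene: Cd180 at chr2:35589680-35589929, Tlr8 at chrX:30708476-30708725 and Tlr6 at chr14:43715559-43715808, all on the plus strand.
Cd180: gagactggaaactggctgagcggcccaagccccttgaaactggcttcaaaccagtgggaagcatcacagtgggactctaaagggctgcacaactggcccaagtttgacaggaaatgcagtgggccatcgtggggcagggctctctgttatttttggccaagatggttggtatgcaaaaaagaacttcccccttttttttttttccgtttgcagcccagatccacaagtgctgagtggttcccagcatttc
Tlr8: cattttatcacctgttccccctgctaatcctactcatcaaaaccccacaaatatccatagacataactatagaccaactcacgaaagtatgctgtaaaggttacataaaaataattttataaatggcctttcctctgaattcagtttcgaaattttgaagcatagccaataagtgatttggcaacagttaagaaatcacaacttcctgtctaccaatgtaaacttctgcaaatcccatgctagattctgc
Tlr6: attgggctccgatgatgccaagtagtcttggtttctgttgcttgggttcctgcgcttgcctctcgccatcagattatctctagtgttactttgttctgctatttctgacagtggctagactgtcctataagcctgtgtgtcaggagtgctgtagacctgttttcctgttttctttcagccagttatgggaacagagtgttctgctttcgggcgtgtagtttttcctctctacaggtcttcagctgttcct

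Short motifs were searched on both strands of these 250 bases: GAGGAAG for PU.1, the myeloid and B cell factor encoded by Spi1, GGGACTT for NF-kB and TGACTCA for AP-1. None occurred in the windows of Cd180, Tlr8 or Tlr6. PU.1 letters were found in 2 of the 10 receptor windows, Tlr4 and Tlr9, and in 10.2% of 33469 windows of all genes. AP-1 letters were found in 1 of the 10, Tlr9, and in 4.05% of all, and NF-kB letters in 0 of the 10 and in 4.4% of all. A match is a description of letters and not of a site in use, and a window without a match says nothing about the factor. The windows that held a match are at chr5:85160997-85161246 for Tlr4 and chr8:115743157-115743406 for Tlr9, both on the plus strand, with the matching letters in capitals. In Tlr4 the PU.1 letters start 68 bases before the gene and are read on the opposite strand, and in Tlr9 the PU.1 letters start 115 and the AP-1 letters 65 bases before it.
Tlr4: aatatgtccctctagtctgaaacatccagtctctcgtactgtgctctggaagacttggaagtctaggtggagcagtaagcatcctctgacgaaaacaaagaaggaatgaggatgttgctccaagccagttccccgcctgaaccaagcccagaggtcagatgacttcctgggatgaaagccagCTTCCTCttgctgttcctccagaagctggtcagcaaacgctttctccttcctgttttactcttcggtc
Tlr9: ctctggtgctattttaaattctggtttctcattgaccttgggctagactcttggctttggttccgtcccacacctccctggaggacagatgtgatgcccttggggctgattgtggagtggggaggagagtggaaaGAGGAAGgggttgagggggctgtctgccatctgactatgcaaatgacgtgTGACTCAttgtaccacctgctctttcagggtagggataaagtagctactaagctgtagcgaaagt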

How the data were processed

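RNA from whole blood was sequenced from directional libraries, 2 per group. Per the study's methods the authors aligned reads to rn6 with HISAT2 and deposited raw counts per gene from htseq-count, strand-specific, in intersection non-empty mode. They state that hemoglobin annotations were removed, yet Hbb and LOC100134871 remained in the deposited counts. Processing names also come from the submitters' notes. The authors' DESeq2 results were not used.

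Counts of 17446 genes (5754 without a count) were tested with edgeR 4.0.16 in R 4.3.3 (filterByExpr, TMM, quasi-likelihood F test). Each model was fitted alone on its 4 libraries, and the difference and the comparisons between models on all 8 with 4 group means. Levels are CPM with TMM scaling over the 8 libraries. The criterion was that of the study, more than 1.5 on the log2 scale either way and p at most 0.05 before adjustment, with Benjamini-Hochberg adjusted p-values over all genes beside it. The floor was 3 counts, and share intervals are at the 95% level. Replicate libraries differed by more than counting noise (chi-square per degree of freedom 15.4 to 94.6, and 11.3 to 26.6 without the hemoglobin genes). The scripts were tested on simulated data. Alternatives were DESeq2 1.42.0, limma-voom 3.58.1, DESeq2 size factors, total counts with and without hemoglobin, no filter, a minimum of 10 counts in each library, all libraries in 1 fit, a replicate block, and leaving out each library. All 10 receptors were named. Of each pathway list, genes meeting the criterion and the 2 lowest p-values per comparison were eligible to be named, and partners named outside that rule are marked. Likeness was Pearson's r of log2 CPM with a prior count of 2. The members and lists were chosen with earlier results of these data known.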

Additional observations from a re-analysis of the deposited data

Results flagged for a closer look

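The counts of Tlr3, a receptor for double-stranded RNA, were ordered in opposite ways in the models. Both AngII libraries after CMG lay above both before, with 0 and 0 counts before and 2 and 4 after, 6 in all, whereas both DOCA–HS libraries after CMG lay below both before, with 2 and 1 counts before and 0 and 0 after. Tlr3 did not pass the filter, so the difference was not tested in the fit as reported; without the filter it met the criterion of the study. All of these values are at or near the 3 counts that a count of 0 allows, so neither a rise nor a fall can be read from them.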

How the results depend on the processing

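With 2 libraries a group, no receptor passed an adjustment over all genes in any comparison as reported (edgeR), and low counts limit Tlr3, Tlr4, Tlr5 and Tlr9 most. In the AngII model 3 receptors met the criterion. The count was 1 with at least 10 counts in every library, where 2 receptors were left to test, and ranged from 1 to 4 on leaving out each library in turn. The 1 was Cd180 without AngII before CMG library 2 and without AngII after CMG library 1. Without the filter 2 receptors, Tlr8 (adjusted p = 0.00442) and Cd180 (adjusted p = 0.00521), passed the edgeR adjustment, as 51 genes did in all. Cd180 also passed it without AngII after CMG library 1, at a log2 fold change of 1.83. Far more genes over the whole table passed in that fit than without the filter.

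In the DOCA–HS model the count of 0 ranged from 0 to 1 on leaving out a library, Tlr8 without after CMG library 1. For the difference between the models it was 1 without the filter (Tlr3, from 9 counts in all) and ranged from 0 to 4, the 4 (Tlr6, Tlr7, Tlr8 and Cd180) without DOCA–HS after CMG library 1. Between the models it was 1 before CMG under scaling to total counts and to counts outside hemoglobin, Cd180 at 2.34 and 2.19, with a range from 0 to 1. After CMG it ranged from 0 to 2 (Tlr6 and Tlr8, without DOCA–HS after CMG library 1). In each fit without that library, calls over all genes were also far more frequent than in the fit as reported. Over all genes, scaling to total counts moved the higher and lower calls from 180 and 73 to 2 and 30 for the difference, from 34 and 33 to 42 and 3 before CMG and from 87 and 25 to 9 and 11 after CMG, and the median of all genes to -1.21, 0.86 and -0.35.

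Directions turned under scaling to total counts in the DOCA–HS model for Tlr1 (-0.18), Tlr2 (-0.18), Tlr4 (-0.19), Tlr5 (-0.13) and Cd180 (-0.10), for the difference in Tlr5 (-0.50, and -0.25 outside hemoglobin), and after CMG between the models in Tlr1 (-0.28) and Tlr4 (-0.077, and -0.0025 with limma-voom). Every value turned by an alternative that keeps all libraries had an unadjusted p far above the threshold (edgeR or limma-voom), and the cause was not tested. On leaving out each library in turn, the DOCA–HS log2 fold change ranged from -5.88 to 0.80 for Tlr4, -6.23 to 0.89 for Tlr5, -6.21 to 1.14 for Tlr6, -2.10 to 1.14 for Tlr7, -8.40 to 1.37 for Tlr8 and -0.88 to 1.32 for Cd180. The difference ranged from -0.64 to 0.065 for Tlr1 and -6.23 to 0.99 for Tlr5. DOCA–HS against AngII ranged from -0.43 to 0.93 for Tlr5 before CMG, and after CMG from -0.13 to 0.55 for Tlr1, -6.21 to 1.12 for Tlr4, -6.10 to 0.95 for Tlr5, -7.22 to 0.12 for Tlr6, -2.62 to 0.62 for Tlr7, -9.33 to 0.44 for Tlr8 and -1.16 to 0.69 for Cd180. Fitted values below -5 rest on genes at 0 in the single library left after CMG, depend on the prior count and are no bound. Under alternatives that keep all libraries, 269 values kept their direction and side of the criterion, 12 turned and 5 newly met it; on leaving out a library 147 kept both, 25 turned, 8 newly met it and 4 no longer did.

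Same-numbered libraries deviated together with a correlation of 0.41 (AngII) and 0.31 (DOCA–HS), but with 2 pairs a model the numbers are not shown to pair the rats. In a fit with this number as the replicate block, 165 genes passed the adjustment in the AngII model, among them Tlr7, Tlr8 (adjusted p = 1.29e-05) and Cd180 (adjusted p = 0.000134), with 3 receptors meeting the criterion as before. The block gave 1 call for the difference, Tlr8 at -1.51 (unadjusted p = 0.0388, edgeR), with Cd180 at -1.34 (unadjusted p = 0.0386, edgeR), and after CMG turned Tlr7 to -0.20 and Cd180 to -0.14 between the models.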
